A study of Mus musculus with 14 samples.

Results

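Pitx1 and 6 limb T-box genes (Tbx2, Tbx3, Tbx4, Tbx5, Tbx15 and Tbx18) were followed through 14 RNA sequencing libraries made from stromal cell clones of mouse bone marrow. The 7 genes were taken by symbol from a count table of 23331 genes, and all 7 have a row in it. Pitx1 was selected for its difference from the adipogenic clones in these same libraries, so its values against those clones are given as a description, with no test. The cells were flushed from the femora and tibiae, both hindlimb bones, of adult C57Bl/6 mice that carry the irtTA-GBD*-TAg transgene. Doxycycline at 1 µg/ml and dexamethasone switch on the large T antigen of this transgene, which keeps the cells dividing. All libraries share this conditionally immortalised background and were made from cells grown for 3 days without both inducers. Groups are named by the lineages a clone could form in culture: tripotent for bone, fat and cartilage (OAC, n = 3), bipotent for bone and fat (OA, n = 3), bone alone (O, n = 3), bone and cartilage (OC3, n = 1), fat and cartilage (AC3, n = 1) and fat alone (A, n = 3). OAC, OA, O and OC3 are together the 10 bone-forming (osteogenic-capable) libraries. Every library numbered 3, OC3 and AC3 included, pools several other clones of the same mice, while those numbered 1 or 2 hold 1 clone each, from different animals. Tests therefore measure how clones and pools spread.

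Pitx1 is a homeobox transcription factor of the bicoid class that is made in the mesenchyme of the hindlimb bud and not of the forelimb bud. It promotes hindlimb bone shape and the expression of Tbx4, the T-box factor of the hindlimb, while Tbx5 is its forelimb counterpart and starts forelimb outgrowth. Tbx2 and Tbx3 act mainly as repressors at the margins of the limb bud, and Tbx15 and Tbx18 are made in skeletal and other mesenchyme.

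Total counts ran between 16888190 in OAC2 and 26076539 in OC3. Levels are given as CPM, read counts scaled to a common library size after TMM adjustment. The 10 bone marrow stromal markers summed to 18138 CPM or more in every library, whereas the blood cell markers reached at most 13.9 CPM and the endothelial markers at most 9.88 CPM. The stromal sum itself differed between groups and was lowest in A. It was 40733 to 68641 CPM in OAC, 53390 to 83475 CPM in OA and 56906 to 90166 CPM in O. OC3 had 78406 CPM, AC3 had 42308 CPM and A had 18138 to 23443 CPM. Most of the sum came from the collagen genes Col1a1 and Col1a2, with means of 31271 and 18272 CPM over the libraries. Of the 9 stromal markers tested, 5 were fitted higher in O than in A. The 4 fitted lower were Pdgfra, Pdgfrb, Cxcl12 and Vcam1, so the sum does not speak for every marker. The part of the stromal sum in the results was not tested. Counts followed gene GC content in many libraries, given here as a Spearman rho across genes. The rho was most positive in OA2 (0.65) and O1 (0.51), was -0.54 in OAC3, OC3 and AC3 and -0.43 to -0.47 in OA3, O2 and O3, and lay between -0.20 and 0.36 in the others.

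Pitx1 (ENSMUSG00000021506) was on in every library but the 3 adipogenic ones. It stood at 20.5, 25.9 and 31.3 CPM in OAC1, OAC2 and OAC3, at 45.8, 35.7 and 15.7 CPM in OA1, OA2 and OA3, and at 106, 40.4 and 24.5 CPM in O1, O2 and O3. The pool OC3 had 26.7 CPM (exact Poisson 95% interval 24.7 to 28.7) and the pool AC3 had 34.2 CPM (31.9 to 36.5). A1, A2 and A3 had 0.0822, 0.0405 and 0 CPM, which is 2, 1 and 0 reads. The count of 0 in A3 allows up to 0.114 CPM, taking 3 reads as the limit. Every one of the 11 other libraries lay far above all A libraries, and the lowest of them, OA3, held 350 reads. In a bulk library, fewer cells with Pitx1 and less Pitx1 RNA per cell cannot be told apart.

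Summed over libraries, Pitx1 was 656-fold higher in OAC than in A (1671 against 3 reads, 95% counting interval 224 to 3183). The ratio over A was 669 in OC3 (228 to 3251) and 857 in AC3 (292 to 4166). These intervals cover counting error only. The fitted log2 fold change against A was 9.15 for OAC, 9.47 for OA and 10.29 for O. It is given without a standard error, since Pitx1 was selected on its difference from A.

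**Figure D1:**
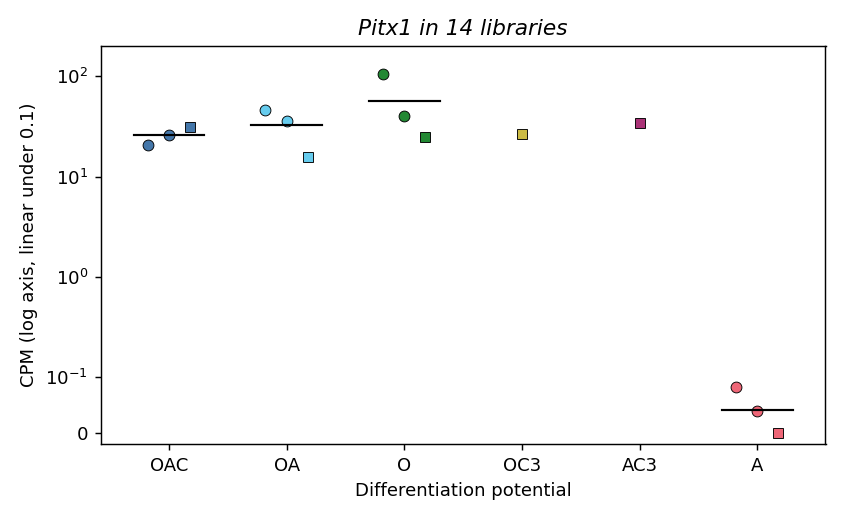
Pitx1 level in CPM (log axis) in each of the 14 libraries by group. Circles are single clones, squares are pools and bars are group means. The 11 libraries outside A lie between 15.7 and 106 CPM, and the 3 A libraries at or below 0.0822 CPM.

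AC3 held Pitx1 although it is no bone-forming pool. It was labelled for fat and cartilage and not for bone. Its Pitx1 level was 1.31 times that of OAC (counting interval 1.203 to 1.421) and 1.28 times that of OC3 (1.16 to 1.42). It was 0.692 times that of O (0.641 to 0.746). These intervals leave out the spread of clones and pools: AC3, a single pool, had 34.2 CPM, within the O range of 24.5 to 106 CPM. Over all libraries, Pitx1 averaged 37.2 ± 25.8 CPM (SD, n = 10) in the bone-forming libraries and 8.57 ± 17.1 CPM (n = 4) in AC3 and the A libraries. The fitted log2 difference was 4.75, and 9.52 without AC3. It is not the log2 ratio of these averages. It averages group means on the log scale, where AC3 weighs as much as all A libraries together.

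The osteoblast genes Sp7 and Alpl were low in AC3. Sp7, the osteoblast transcription factor osterix, stood at 5.20 to 397 CPM in the 10 bone-forming libraries, at 0.872 CPM in AC3 and at 0.486 to 1.03 CPM in A, so AC3 lay within the A range. Alpl, the alkaline phosphatase of mineralising cells, stood at 159 to 2689 CPM in the bone-forming libraries, at 30.6 CPM in AC3 and at 45.5 to 146 CPM in A, so AC3 was the lowest of all. Col1a1, the main bone collagen, lay between the groups. It had 22487 to 55512 CPM in the bone-forming libraries, 18325 CPM in AC3 and 4956 to 11231 CPM in A. The rest of the osteoblast list was mixed. Ibsp, at 0.159 CPM in AC3, lay within A (0 to 0.648 CPM) and below the bone-forming libraries (1.02 to 1518 CPM). Runx2, at 65.7 CPM in AC3, lay within both A (58.4 to 86.4 CPM) and the bone-forming libraries (55.9 to 218 CPM). Bglap, at 0.674 CPM in AC3, lay above A (0.114 to 0.411 CPM) and within the bone-forming libraries (0.176 to 14.7 CPM). In O against A, 6 of the 6 listed osteoblast genes were fitted higher, with a median log2 fold change of 4.11. The edgeR test called 0 of them (0.0072% of all genes, which is the selected Pitx1 alone). DESeq2 called 5 (3.03% of all genes), and 5 had an unadjusted edgeR p under 0.05 (9.89% of all genes). Among bone-forming libraries the levels of Pitx1 and Sp7 gave a mixed picture. O1 had the most Pitx1 with 22.3 CPM of Sp7, and O2 had the most Sp7, 397 CPM, with 40.4 CPM of Pitx1. OA3 had the least Pitx1, 15.7 CPM, with 192 CPM of Sp7. However, OA1 was high in both, with 45.8 CPM of Pitx1 and 216 CPM of Sp7, and OAC1 was low in both, with 20.5 and 5.20 CPM. A relation of the 2 genes over these libraries was not tested.

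Pitx1 did not differ detectably among the bone-forming groups, contrasts on which it was not selected. The mean was 25.9 ± 5.44 CPM in OAC, 32.4 ± 15.3 CPM in OA and 56.9 ± 43.1 CPM in O (SD, n = 3 each), and every pair of groups overlapped. The log2 fold change was -0.81 ± 0.59 (SE) for OA against O, with a 95% interval of -2.12 to 0.49. Its FDR was 0.961 (edgeR's quasi-likelihood test, Benjamini-Hochberg adjustment over 13896 genes). OAC against O gave -1.13 ± 0.59 (-2.45 to 0.18, edgeR FDR 0.856), and OAC against OA gave -0.32 ± 0.59 (-1.62 to 0.98, edgeR FDR 0.9997). The high value of O1 carried much of both differences from O: without it they were -0.0027 for OA and -0.32 for OAC. O1 is also a library whose counts followed GC content, and the Pitx1 transcript has 65.8% GC. With the GC trend of each library removed, Pitx1 was 70.4 CPM in O1, 49.8 CPM in AC3 and at most 53.0 CPM in the other libraries.

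The 10 genes nearest to Pitx1 in the count table, in the order of build GRCm38, were looked at after the Pitx1 values were seen. Among the 7 that were tested, the lowest edgeR FDR in O against A was 0.415. H2afy, which encodes the histone variant macroH2A1, averaged 74.9 ± 7.50 CPM in O libraries and 94.6 ± 22.8 CPM in A libraries (log2 fold change -0.34 ± 0.21, edgeR FDR 0.701). Txndc15, a thioredoxin-domain protein, had a mean of 37.9 ± 3.50 CPM in the O libraries and of 41.8 ± 7.28 CPM in the A libraries. The mean of Pcbd2 was 9.91 ± 1.70 CPM in the O libraries and 11.4 ± 3.31 CPM in the A libraries. These 3 genes were thus transcribed in the A libraries that held 3 Pitx1 reads together. The adjacent Catsper3, a sperm ion channel gene, did not exceed 0.377 CPM. Tifab reached 5.21 CPM in O1, at most 0.527 CPM in the other libraries, and 0 in A. The chemokine gene Cxcl14 was uneven: O1, O2 and O3 had 2.61, 0 and 12.9 CPM, and no A library exceeded 0.246 CPM (5.09 ± 1.87, edgeR FDR 0.415).

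The genes most like Pitx1 over the 14 libraries still differed from it widely. Likeness was measured as the root-mean-square difference of centred log2 CPM, on which Pitx1 itself had an SD of 3.48. The 5 nearest named genes were Mest (1.86), Clec11a (1.98), Fmod (2.05), Asphd2 (2.14) and Kcnip3 (2.15). Mest, an imprinted gene, had 77.9 to 234 CPM in the bone-forming libraries, 88.5 CPM in AC3 and 1.62 to 29.7 CPM in A. Clec11a, the secreted bone growth factor osteolectin, had 6.32 to 252 CPM in the bone-forming libraries but 4.36 CPM in AC3, against 0.915 to 1.58 CPM in A. Fmod, a collagen-binding proteoglycan, stood at 154 to 1008 CPM in the bone-forming libraries, at 78.5 CPM in AC3 and at 13.6 to 34.7 CPM in A. Asphd2 had 0.552 to 9.26 CPM in the bone-forming libraries, 0.555 CPM in AC3 and 0.121 to 0.152 CPM in A. Kcnip3 had 1.10 to 12.2 CPM in the bone-forming libraries, 1.23 CPM in AC3 and 0.288 to 0.324 CPM in A. In AC3 the 5 genes thus lay above their A ranges. Clec11a and Fmod lay below their bone-forming ranges, and Mest, Asphd2 and Kcnip3 lay within theirs. The 5 genes were picked for likeness to Pitx1 over these same libraries, so these values are a description. The choice of measure matters here: ranking by Spearman rho kept 1 of the 5 genes, and leaving out OA2 and O1 kept 3.

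The T-box genes spanned a wide range of levels. Per kilobase of exon, which makes genes comparable, the mean over 14 libraries was 27.0 CPM for Tbx15, 11.9 CPM for Pitx1, 8.08 CPM for Tbx18, 1.11 CPM for Tbx2 and 0.905 CPM for Tbx3. Tbx5 and Tbx4 followed at 0.0466 and 0.00687 CPM per kilobase. Tbx2, Tbx3, Tbx15 and Tbx18 passed the expression filter of 1 CPM in 3 libraries, as did Pitx1, and Tbx4 and Tbx5 did not.

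None of the 4 tested T-box genes differed between groups past the threshold in any of 7 comparisons. The edgeR test called 0 of 4 at an FDR of 0.05 in O against A, OA against A and OAC against A, where 0.0072% of all genes tested were called in each. That share is Pitx1 alone, the gene selected on these contrasts, so its call is no evidence and no other gene was called. It also called 0 of 4 in OA against O, OAC against O, OAC against OA and the bone-forming against the other libraries, where 0% of all genes were called. DESeq2 called 0 of 4 in all 7, where it called 3.03% of all genes in O against A, 0.937% in OA against A, 0.411% in OAC against A, 0.303% in OA against O, 0.728% in OAC against O, 0% in OAC against OA and 2.66% in the bone-forming against the other libraries. At an unadjusted edgeR p under 0.05 there was 1 T-box gene in O against A (Tbx3), where 9.89% of all genes passed, and 1 in the bone-forming against the other libraries (Tbx18), where 8.06% passed. There were 0 in OA against A (5.27% of all genes), OAC against A (3.58%), OA against O (5.43%), OAC against O (6.02%) and OAC against OA (1.17%). In size, the median absolute log2 fold change of the 4 genes was 0.44 in O against A, 0.85 in OA against A and 0.44 in OAC against A, beside 0.31, 0.27 and 0.23 for all genes. It was 0.82 in OA against O, 0.32 in OAC against O and 0.56 in OAC against OA, beside 0.32, 0.29 and 0.21. In the bone-forming against the other libraries it was 0.85 beside 0.26. Larger changes than those of all genes were thus not particular to contrasts with A.

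**Figure D2:**
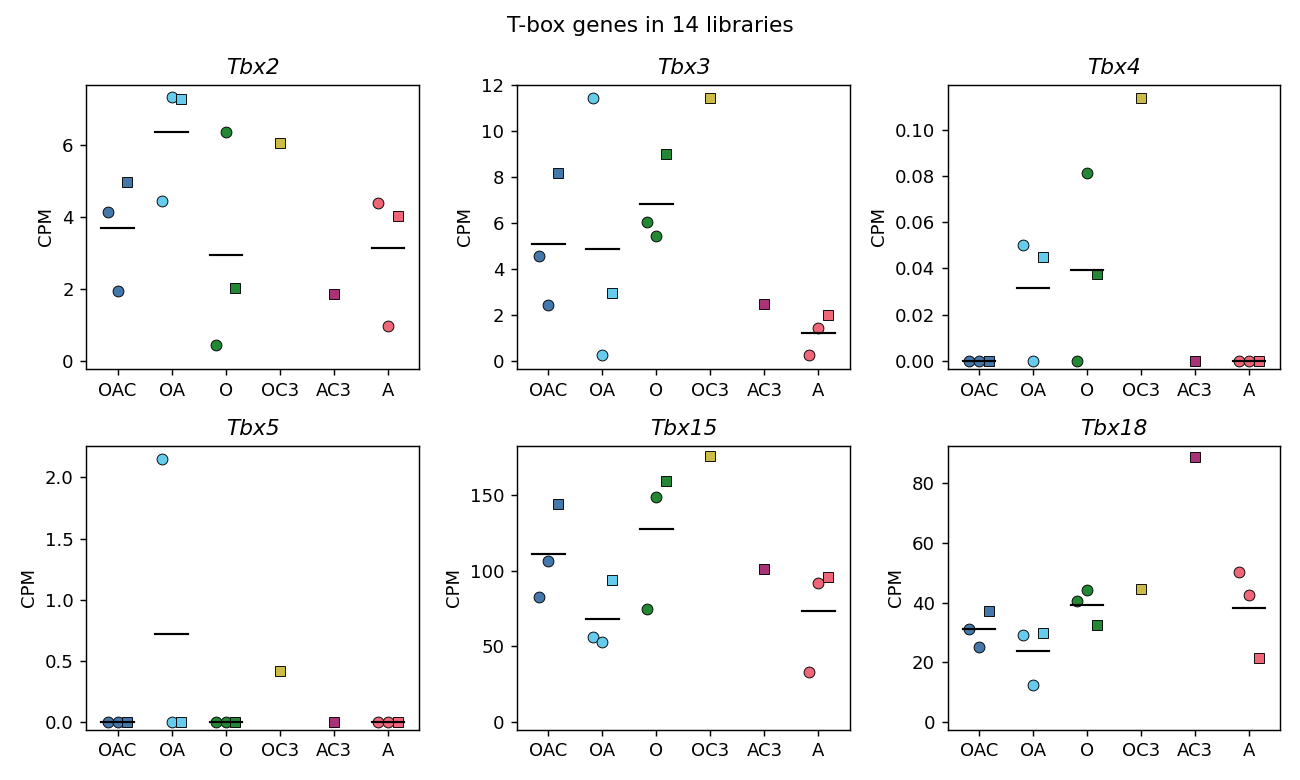
Levels of the 6 T-box genes in CPM in each library by group, one panel per gene. Circles are single clones, squares are pools and bars are group means. Tbx15 and Tbx18 are on in all 14 libraries, while Tbx4 does not exceed 0.114 CPM and Tbx5 is above 0 in OA1 and OC3 alone.

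Tbx4 (ENSMUSG00000000094), the hindlimb T-box factor that Pitx1 promotes in the limb bud, was nearly silent. It had 8 reads in the 14 libraries together, where Pitx1 had 8485. They were 1 read each in OA1, OA3 and O3, 2 reads in O2 and 3 reads in OC3, and the other 9 libraries had 0. O1, with the highest Pitx1 level, was among the 9, as were AC3 and all of OAC and A. A count of 0 allows at most 0.191 CPM in O1 and less in the other 8.

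Tbx5 (ENSMUSG00000018263), the forelimb counterpart, was present in 2 libraries. OA1 had 43 reads or 2.15 CPM (exact Poisson 95% interval 1.56 to 2.90), and OC3 had 11 reads or 0.417 CPM (0.208 to 0.745). The other 12 libraries had 0 reads, OA2 and OA3 included, so Tbx5 set 1 clone apart from its own group. Both libraries also held Tbx4 reads, 1 in OA1 and 3 in OC3. With no expression filter, over 23331 genes, the lowest edgeR FDR of Tbx4 or Tbx5 in the 7 comparisons was 0.731.

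The start regions of the silent Tbx4 and of the broadly expressed Tbx18 are shown because the Tbx4 gene is a known Pitx1-dependent gene of the hindlimb bud. The RefSeq promoter table, build GRCm38.p6, held 2 of the 7 genes. Each sequence covers 250 bases before and 50 bases after the annotated start on the gene's own strand, and capitals mark CpG dinucleotides. The Tbx4 window is chr11:85896515-85896814 on the plus strand, and the Tbx18 window is chr9:87731211-87731510 on the minus strand.
Tbx4: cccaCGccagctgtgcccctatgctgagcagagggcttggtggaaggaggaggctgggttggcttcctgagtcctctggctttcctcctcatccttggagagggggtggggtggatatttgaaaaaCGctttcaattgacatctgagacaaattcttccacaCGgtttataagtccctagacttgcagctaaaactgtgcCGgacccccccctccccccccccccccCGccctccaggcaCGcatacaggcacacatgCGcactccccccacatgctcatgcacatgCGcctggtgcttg
Tbx18: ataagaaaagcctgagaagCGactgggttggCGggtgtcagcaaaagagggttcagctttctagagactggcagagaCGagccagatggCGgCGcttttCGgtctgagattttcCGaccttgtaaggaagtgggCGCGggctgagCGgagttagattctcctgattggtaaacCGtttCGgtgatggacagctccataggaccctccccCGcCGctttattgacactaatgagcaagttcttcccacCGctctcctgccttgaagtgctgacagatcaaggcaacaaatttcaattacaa
The Tbx4 window had 59.0% GC and 8 CpG, and the Tbx18 window had 51.7% GC and 15 CpG. Neither held the bicoid-class core TAATCC on either strand, which 7.06% of 32851 such windows hold. Neither held the T-box core GGTGTGA, which 3.98% of windows hold. These letters are thus absent from 300 bases only, and no binding was measured.

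Tbx3 (ENSMUSG00000018604), a repressor whose mutation in humans causes ulnar-mammary syndrome, had the largest fitted difference from A among the 4 tested T-box genes. It stood at 4.58, 2.45 and 8.21 CPM in OAC1, OAC2 and OAC3, at 11.5, 0.268 and 2.96 CPM in OA1, OA2 and OA3, and at 6.04, 5.43 and 9.03 CPM in O1, O2 and O3. OC3 had 11.4 CPM, AC3 had 2.50 CPM, and A1, A2 and A3 had 0.246, 1.42 and 1.98 CPM. All O and all OAC libraries lay above all A libraries, and OA overlapped A through OA2, the library with the strongest GC trend. The share of all genes that separate in this way is not given here, so no result is read from the separation. AC3 lay just above A and below all O libraries.

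The log2 fold change of Tbx3 in O against A was 2.49 ± 1.09 (95% interval 0.07 to 4.90, unadjusted p = 0.0450), which did not pass the edgeR test (FDR 0.490). It lay between 2.01 and 3.03 when any 1 O or A library was left out. OAC against A gave 2.06 ± 1.08 (-0.33 to 4.45, edgeR FDR 0.9998). OA against A gave 2.004 ± 1.074, which rested on OA1 and was 0.41 without it. In the bone-forming against the other libraries it was 1.93 ± 1.00 (-0.29 to 4.15, edgeR FDR 0.719). Tbx3os1, the antisense gene at the Tbx3 start, had at most 1 read in any library.

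Tbx2 (ENSMUSG00000000093), the close relative of Tbx3, did not follow the lineage groups. It had 4.14, 1.95 and 4.97 CPM in OAC1, OAC2 and OAC3, 4.45, 7.34 and 7.30 CPM in OA1, OA2 and OA3, and 0.445, 6.36 and 2.02 CPM in O1, O2 and O3. OC3 had 6.06 CPM, AC3 had 1.86 CPM, and A1, A2 and A3 had 4.40, 0.971 and 4.04 CPM. O1 was lowest, and the lowest OA library, at 4.45 CPM, was close to the highest A library, at 4.40 CPM. OA against A gave a log2 fold change of 1.02 ± 0.83 (-0.83 to 2.87, edgeR FDR 0.9998), and the O and A groups overlapped (-0.08 ± 0.83). The single clones O1 and O2, at 0.445 CPM (7 reads) and 6.36 CPM, were further apart than the means of the groups of 3 libraries. Those means ran from 2.94 CPM in O to 6.36 CPM in OA. Not every pair was so far apart: OA1 and OA2 had 4.45 and 7.34 CPM.

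Tbx15 (ENSMUSG00000027868), a factor whose loss in mice reduces skeletal elements, was the most abundant of the 6 T-box genes per kilobase over the 14 libraries. It had 82.8, 106 and 144 CPM in OAC1, OAC2 and OAC3, 56.0, 53.0 and 94.0 CPM in OA1, OA2 and OA3, and 74.9, 148 and 159 CPM in O1, O2 and O3. OC3 had 176 CPM, AC3 had 101 CPM, and A1, A2 and A3 had 32.7, 92.0 and 95.7 CPM. OAC, OA and O each overlapped A, in which A1 was low, and the single pools OC3 and AC3 lay above all 3 A libraries.

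Tbx15 averaged 111 ± 31.0 CPM in OAC, 67.7 ± 22.8 CPM in OA, 127 ± 45.9 CPM in O and 73.5 ± 35.4 CPM in A (SD, n = 3 each). O against A gave a log2 fold change of 0.79 ± 0.44 (-0.19 to 1.78, edgeR FDR 0.634), and OA against O gave -0.91 ± 0.44 (-1.90 to 0.07, edgeR FDR 0.918). Both intervals include 0. The pools, numbered 3, held the highest Tbx15 level in each of the 4 groups of 3 libraries.

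Tbx18 (ENSMUSG00000032419), known from somites, the epicardium and mural cells, had its highest level in AC3. It had 31.1, 25.1 and 37.2 CPM in OAC1, OAC2 and OAC3, 29.0, 12.3 and 29.7 CPM in OA1, OA2 and OA3, and 40.6, 44.1 and 32.4 CPM in O1, O2 and O3. OC3 had 44.6 CPM, AC3 had 88.8 CPM, and A1, A2 and A3 had 50.2, 42.5 and 21.5 CPM. AC3 lay above all other libraries, and the O and A groups overlapped with nearly equal means of 39.0 ± 6.01 and 38.1 ± 14.9 CPM.

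In the bone-forming against the other libraries, Tbx18 averaged 32.6 ± 9.73 CPM (SD, n = 10) and 50.8 ± 28.1 CPM (n = 4). The log2 fold change was -0.79 ± 0.30 (-1.46 to -0.11, unadjusted p = 0.0262), which did not pass (edgeR FDR 0.526) and was -0.18 without AC3. OA was fitted below O (-0.72 ± 0.39, edgeR FDR 0.948), and the lowest library was again OA2. Since Tbx18 is a mural cell gene, the 10 mural markers were summed: they came to 6294 to 12110 CPM in OAC, 4840 to 19655 CPM in OA, 3368 to 12605 CPM in O, 4979 CPM in OC3, 8572 CPM in AC3 and 6191 to 7694 CPM in A. AC3 thus lay within OAC, OA and O and above A, and OA2, with the lowest Tbx18 level, had the highest mural sum. Most of that sum came from Acta2 and Tagln, at 15614 and 3381 CPM in OA2. Other mural markers differed among themselves in OA2. Mcam and Des were also highest there, at 168 and 23.6 CPM, while Rgs5 had 0.161 CPM and Abcc9 and Kcnj8 had 0. Rgs5 had 1.43 CPM in AC3. The part of the mural markers in the Tbx18 values was not tested.

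**Figure D3:**
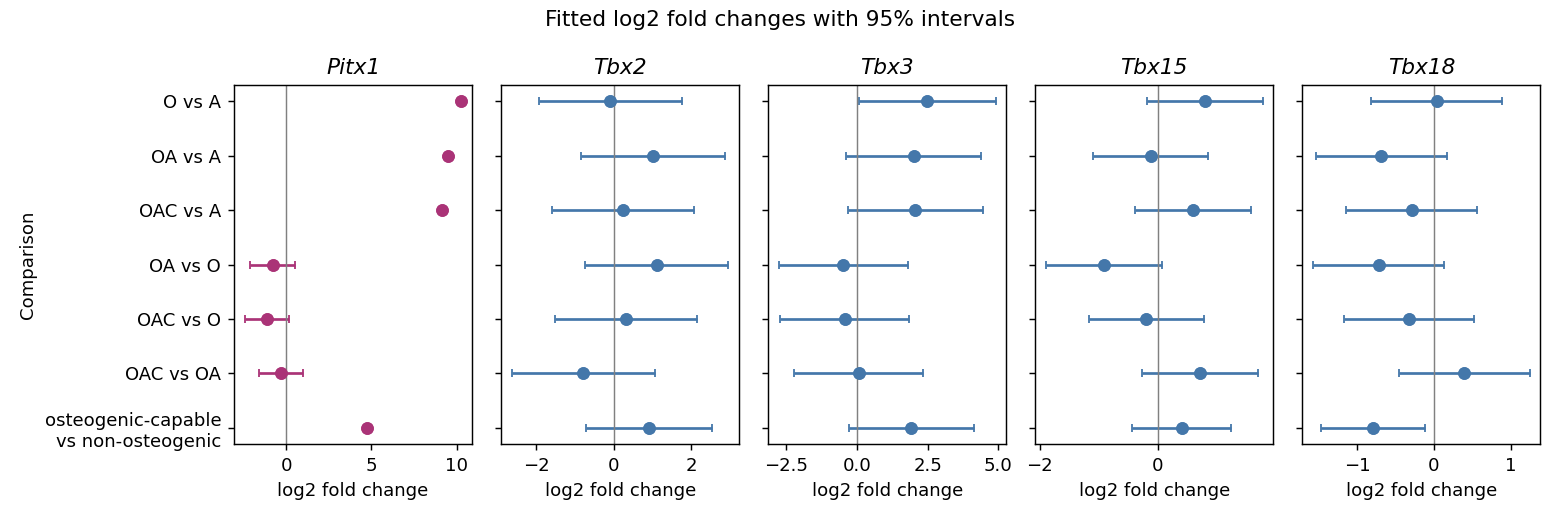
Fitted log2 fold changes of Pitx1 and the 4 tested T-box genes in 7 comparisons, the group named first over the second, on an axis of its own per gene. Bars are 95% intervals and are left out for Pitx1 in the comparisons it was selected on. Among T-box genes, the interval of Tbx3 in O against A and that of Tbx18 in the bone-forming against the other libraries leave out 0, and neither passed adjustment.

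Hoxc9 and Hoxc10 were on in all 14 libraries, those without Pitx1 included. They belong to a list of hindlimb program genes with Isl1 and Hoxc11, all of them transcription factors of the posterior body or the early hindlimb field. Of the 3 that were tested, Isl1 being too low, the edgeR test called 0 in each of the 7 comparisons. At an unadjusted p under 0.05 there was 1 in O against A (9.89% of all genes), OA against A (5.27%), OAC against A (3.58%) and the bone-forming against the other libraries (8.06%). DESeq2 called 1, Hoxc11, in O against A (3.03% of all genes) and in the bone-forming against the other libraries (2.66%). Their median log2 fold change in O against A was 0.51, that of Hoxc10, beside 0.03 for all genes, with 2 higher and 1 lower. Hoxc10, a posterior Hox gene, stood at 27.6 to 75.7 CPM in the bone-forming libraries, at 30.6 CPM in AC3 and at 29.5 to 44.3 CPM in A. Hoxc9 stood at 6.66 to 10.3 CPM in the bone-forming libraries, at 4.84 CPM in AC3 and at 8.01 to 12.4 CPM in A. Both Hox genes were thus present in the 3 libraries without Pitx1, at levels that overlapped the rest.

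Hoxc11, singled out after its values were seen, was the list member that differed most. It had 6.26, 28.6 and 13.3 CPM in OAC1, OAC2 and OAC3, 9.86, 8.30 and 8.91 CPM in OA1, OA2 and OA3, and 30.8, 14.3 and 8.06 CPM in O1, O2 and O3. OC3 had 7.38 CPM, AC3 had 0.119 CPM, and A1, A2 and A3 had 0.657, 0 and 2.94 CPM. Here AC3 sat with the A libraries and below all bone-forming ones, unlike for Pitx1. The log2 fold change in the bone-forming against the other libraries was 4.92 ± 1.39 (1.83 to 8.01), which did not pass the edgeR test (FDR 0.363), and in O against A it was 3.88 ± 1.21 (edgeR FDR 0.329). Isl1, which acts upstream of hindlimb initiation, reached 1.40 CPM in OC3 and at most 0.473 CPM in the other libraries.

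**Figure D4:**
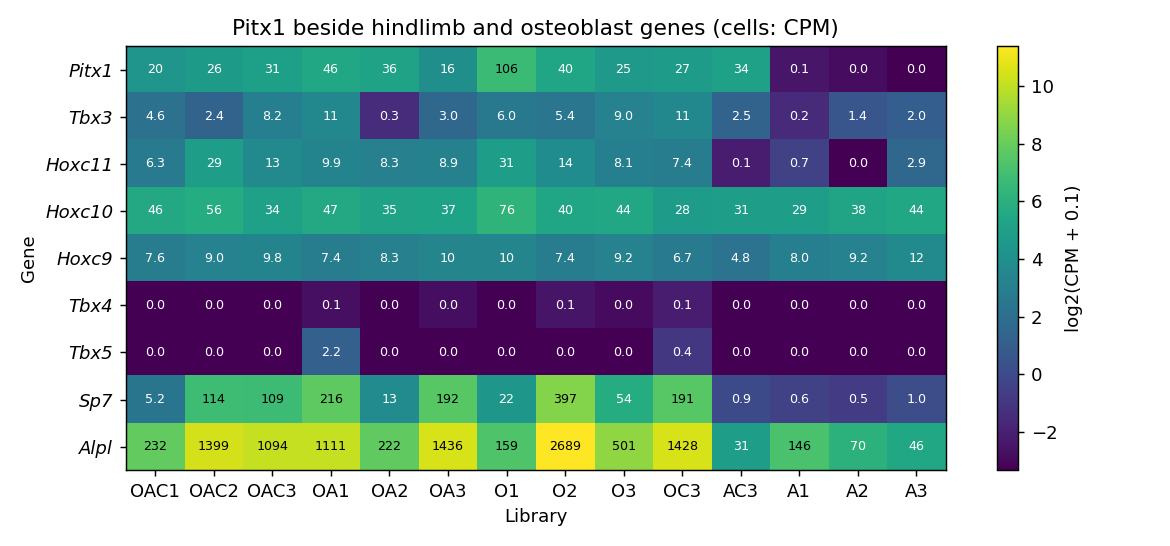
Levels of Pitx1, Tbx3, the Hox genes Hoxc11, Hoxc10 and Hoxc9, Tbx4, Tbx5 and the osteoblast genes Sp7 and Alpl in each library, coloured by log2(CPM + 0.1) with the CPM printed in each cell. AC3 has 34.2 CPM of Pitx1 beside 0.872 CPM of Sp7 and 0.119 CPM of Hoxc11, and Hoxc10 is on in all 14 libraries.

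Limb mesenchyme transcription factors were expressed in the A libraries too. Of 25 listed genes, 24 are in the table and 21 were tested, with 0 called by the edgeR test in any of the 7 comparisons and 4 at an unadjusted p under 0.05 in O against A, beside 9.89% of all genes. DESeq2 called 1 in O against A (Prrx2, beside 3.03% of all genes), 1 in OA against A (Irx3, beside 0.937%) and 0 in the other comparisons. The median log2 fold change in O against A was 0.04, with 11 higher and 10 lower. Prrx1, a homeobox factor of limb mesenchyme, ran between 104 and 407 CPM over the libraries, with 344 CPM in AC3. Gli3, the Hedgehog-pathway factor that patterns digits, ran between 33.2 and 102 CPM.

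The limb bud signals and their responders included 19 genes, of which 13 were tested and 0 called by edgeR, with 5 at an unadjusted p under 0.05 in O against A, beside 9.89% of all genes. DESeq2 called 4 in O against A (Rspo2, Spry4, Ptch1 and Gli1), beside 3.03% of all genes, and between 0 and 2 in the other comparisons. Fgf10, the outgrowth signal that Tbx4 and Tbx5 promote in limb buds, reached at most 0.686 CPM in any library. Its receptor Fgfr2 averaged 229 ± 115 CPM in O libraries and 121 ± 41.1 CPM in A libraries (log2 fold change 0.91 ± 0.42, edgeR FDR 0.520), and the related Fgfr1 averaged 322 ± 36.6 CPM in O libraries and 260 ± 26.3 CPM in A libraries (edgeR FDR 0.745).

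Reported repression targets of Tbx2 and Tbx3 were 5 genes, all tested and none called by edgeR or DESeq2 in any comparison. At an unadjusted p under 0.05 there were 0 in O against A (9.89% of all genes) and 1 in the bone-forming against the other libraries (8.06%). The cell cycle inhibitor Cdkn1a averaged 1194 ± 837 CPM in O libraries and 815 ± 75.0 CPM in A libraries (0.55 ± 0.46, edgeR FDR 0.833). The other inhibitor, Cdkn2a, averaged 686 ± 328 CPM in O libraries and 590 ± 155 CPM in A libraries (edgeR FDR 0.996). The median log2 fold change of the 5 genes was 0.55 in O against A, with 4 higher and 1 lower, beside 0.03 for all genes.

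Of the listed pituitary hormone genes and partners of Pitx1, Egr1 was expressed and the others in the table were at most 0.382 CPM. Of 13 listed, 8 are in the table and Egr1, an immediate-early factor, was the 1 tested. It stood at a mean of 142 ± 45.8 CPM in the O libraries and of 582 ± 94.9 CPM in the A libraries (-2.04 ± 0.70, edgeR FDR 0.374; not called by DESeq2). Pomc, the hormone precursor gene that Pitx1 was first known to activate, reached at most 0.379 CPM in any library. Of 6 bicoid-class relatives looked at, 4 are in the table and 2 were tested, with 0 called by edgeR, 0 by DESeq2 and 0 at an unadjusted p under 0.05 in O against A. Among these, Otx1 averaged 2.27 ± 1.90 CPM in O libraries and 4.12 ± 1.45 CPM in A libraries (edgeR FDR 0.863). Gsc ran between 0 and 8.80 CPM over the libraries (edgeR FDR 0.813 in O against A). Of 11 other T-box genes, 9 are in the table and 3 were tested, with 0 called by edgeR, 0 by DESeq2 and 0 at an unadjusted p under 0.05 in O against A. Mga, a large repressor with a T-box, averaged 57.0 CPM over the libraries, with 1.93 CPM in OA2 and 4.32 CPM in O1, the libraries with the most positive GC trend. Tbx6, a somite gene, averaged 0.948 CPM.

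The T-box genes had neighbours at smaller distances than Pitx1 had, on a measure that grows with the SD of a gene. By the same likeness, the nearest named gene was Dact1 for Tbx2 (0.54), Tmem169 for Tbx3 (0.73), Them4 for Tbx15 (0.34) and Zfp870 for Tbx18 (0.33). The T-box genes varied less, with SDs of 1.13, 1.65, 0.68 and 0.65 in this order, so the smaller distances do not show closer patterns. Them4 was kept as a near neighbour of Tbx15 when likeness was ranked by Spearman rho and when OA2 and O1 were left out. Without OA2 and O1, 0 of the 3 nearest genes were kept for Tbx2 and for Tbx18, and 1 of 3 for Tbx3.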

How the data were processed

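Strand-specific libraries of oligo(dT)-enriched mRNA were sequenced, per the labels' protocols. The authors deposited a table of whole-number read counts per gene for 14 libraries, with Ensembl numbers and symbols. CASAVA 1.8.0, bedtools 2.11 and build mm9 are named in the submitters' processing notes. Neither an aligner nor whether counting used strand is given in the sources, so genes that overlap Pitx1, Tbx3, Tbx15 and Tbx18 may share reads with them. Columns were matched to libraries by name.

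From the deposited counts, the 13896 of 23331 genes that reached 1 CPM in 3 or more libraries were tested with edgeR 4.0.16 in R 4.3.3: TMM factors, robust quasi-likelihood F test, 6 group means over all 14 libraries, 8 residual degrees of freedom and Benjamini-Hochberg adjustment (FDR, threshold 0.05). The bone-forming contrast averages the 4 bone-forming group means against those of A and AC. A standard error is the size of the log2 fold change over the square root of its F statistic, not one the fit gives, and 95% intervals use its t distribution. Single values have exact Poisson intervals, which cover counting error only, and the limit of a count of 0 is 3 reads. GC content is that of the longest GENCODE M21 transcript, matched for 96.5% of tested genes. DESeq2 1.42.0, RLE size factors, no filter, GC offsets, a replicate block, single clones only and left-out libraries were alternatives. Where 1 library was left out, the ranges cover only comparisons that hold its group. The test was checked on simulated counts. The members and the gene lists were chosen with earlier results of these data known. Named genes were the members, the 5 genes most like Pitx1 and the 3 most like each tested T-box gene (predicted and unnamed genes passed over; 1 of 3 is printed for the T-box genes), list members past the threshold and the 2 most abundant of each list. Hoxc9, Hoxc11, Isl1, Fgf10, Sp7, Runx2, Ibsp and Bglap were added after their values were seen. So were the genes named as DESeq2 calls, the named stromal and mural markers and the neighbours of Pitx1. A gene of the lists is not reported here and was left out of their counts.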

Additional observations from a re-analysis of the deposited data

Results flagged for a closer look

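The highest or lowest library was compared with the gap to its neighbour in 11 sets of the members' levels (Dixon's test at 95%, 10 bone-forming or 4 other libraries, Pitx1 in the bone-forming ones only), and 3 stood apart. Chance flags about 1 in 20 sets where levels follow a normal distribution. Sets with many counts of 0, such as those of Tbx4 and Tbx5, do not, so the number of flags cannot be set against that rate. Pitx1 in O1, at 105.8 CPM, lay above the next bone-forming library, OA1 at 45.8 CPM. Tbx5 in OA1, at 2.15 CPM, lay above OC3 at 0.417 CPM. Tbx15 in A1, at 32.7 CPM, lay below A2 at 92.0 CPM.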

How the results depend on the processing

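No T-box gene passed the threshold under any setting run, and the lowest FDR was 0.173 (Tbx3, O against A, DESeq2). Fitted T-box changes near 0 turned sign. Without OA2 and O1, O against A was 0.40 for Tbx2 and -0.019 for Tbx18, OA against A was 0.033 for Tbx15, OA against O was 0.017 for Tbx3, OAC against O was -0.15 for Tbx2 and OAC against OA was -0.50 for Tbx3. With single clones only they were 0.40 (Tbx2) and -0.054 (Tbx18) in O against A, -0.17 (Tbx2) in OAC against O and -0.68 (Tbx3) in OAC against OA. With GC offsets Tbx2 was 0.25 in O against A. With 1 library left out, Tbx2 ran between -1.32 and 0.42 and Tbx18 between -0.25 and 0.29 in O against A, Tbx15 between -0.47 and 0.12 in OA against A, Tbx2 between -0.19 and 0.56 in OAC against A, Tbx3 between -2.08 and 0.057 in OA against O, Tbx2 between -0.18 and 1.56 in OAC against O, and Tbx3 between -0.48 and 1.65 and Pitx1 between -0.65 and 0.013 in OAC against OA. The cause of these turns was not tested.

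The fitted Pitx1 change ran between 9.48 and 11.14 in O against A, 8.92 and 10.33 in OA against A, and 8.60 and 10.00 in OAC against A with 1 library left out. With single clones only it was 8.49 in OAC against A and 9.32 in the bone-forming contrast. The number of all genes called moved more. DESeq2 called 420 genes in O against A, 130 in OA against A, 57 in OAC against A, 42 in OA against O, 101 in OAC against O, 0 in OAC against OA and 369 in the bone-forming contrast. edgeR called 4 in O against A with GC offsets, 2 in each contrast with A with no filter, and 3, 2 and 2 without OA2 and O1 in O, OA and OAC against A. It called 0 with single clones only, where 4 groups of 2 remain. With 1 library left out it called between 0 and 4 in O against A, 0 and 1 in OA against A, 0 in OAC against A and between 0 and 2 in the bone-forming contrast.

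With the replicate number as a block, the replicate block fit called 0 T-box genes in all 7 comparisons and 1 gene in each contrast with A, and its lowest T-box FDR was 0.372. The numbers were not taken to pair the libraries: correlations between same-numbered libraries ran between -0.31 and 0.39 for number 1, between -0.58 and 0.47 for number 2 and between 0.29 and 0.76 for number 3, the pools, and 7 of 12 libraries were most like one of their own number. At these depths 3 reads are 0.112 to 0.191 CPM, which limits what can be said of Tbx4 and Tbx5.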
